A study of Mus musculus with 16 samples.

Results

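The comparison described here is PPARγ occupancy in fat cells after 1 h of rosiglitazone against its solvent alone, measured at every peak of the deposited PPARγ list. All 30588 peaks of that list were used, out of 61107 peaks in the PPARγ and C/EBPα lists together. Occupancy was measured by chromatin immunoprecipitation followed by sequencing, in which the DNA bound by a protein is pulled down with an antibody, sequenced and counted as tags along the genome. The cells were 3T3-L1 adipocytes, a mouse fibroblast line turned into fat cells in culture with dexamethasone, isobutylmethylxanthine, insulin and serum, at day 7 of differentiation. The PPARg_DMSO group received 0.1% DMSO, and the PPARg_Rosi group received 1 µM rosiglitazone in 0.1% DMSO, so the solvent was common to both. The labels list 2 samples in each of these groups, but the list holds 1 PPARγ column per treatment, and whether a column is 1 sample or both was not stated. No value here therefore has a replicate check, no p-value is given, and every difference between treatments is a difference between those 2 columns. The peak lists hold no RNA, so the state of the cells was not checked against fat cell markers. Positions are on genome build mm9, and no peak is assigned to a gene, because an annotation of that build was not used here.

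PPARγ is a nuclear receptor that pairs with RXR on DNA and is required for fat cell formation and for the expression of lipid storage genes. Rosiglitazone, a thiazolidinedione used against diabetes, binds in its ligand pocket and favours the recruitment of coactivators. C/EBPα is a transcription factor that occupies many fat cell enhancers together with PPARγ, CBP acetylates histones, and MED1 is the Mediator subunit that nuclear receptors contact. Fat cell enhancers often lie in groups, so the position of a peak relative to others is informative as a description.

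Across all peaks the mean deposited PPARγ signal was 13.9 units in DMSO and 21.3 in rosiglitazone. The ratio of the summed signals was 1.53 (95% interval 1.52 to 1.53). These intervals come from the exact binomial distribution of the tags, so they describe counting error alone and hold no information on how cultures vary. If the columns are scaled to 10 M tags, which no header states, the peaks held 4.26% of the DMSO library and 6.51% of the rosiglitazone library. A larger share of tags in peaks because more receptor was bound and a larger share because that immunoprecipitation was more efficient cannot be told apart with these columns. The comparisons below set classes of peaks against each other, which removes a factor that multiplies all tags of a library alike. A difference in efficiency that acts on bound and background tags unequally is not removed, and its part in the contrasts between weak and strong classes was not tested. Ratios are on the deposited scale, so a ratio near 1 lies below the common ratio.

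Single peaks spread widely around the common ratio. On the log2(signal + 1) scale, which understates differences at low peaks, the median log2 ratio was 0.50 with quartiles of -0.11 and 1.15. By a 2-fold limit, rosiglitazone exceeded DMSO at 9168 peaks, 30.0% of the list, and DMSO exceeded rosiglitazone at 1356, 4.43%. Among the 26384 peaks with 20 tags or more over both columns, 7995 (30.3%) and 1063 (4.03%) passed it, shares close to those over all peaks. The counts depend on the scale. Centred on the median log2 ratio, which brings the 2 counts near each other by construction, 4767 peaks were higher and 4089 lower. Scaled to the PPARγ ratio at C/EBPα-only peaks, 1.47, the counts were 4705 and 4018. That scale shifts log2 ratios by 0.55, close to the median of 0.50. Whether the imbalance comes from the scale was not tested. The interval of the peak's own ratio lay wholly above 1 at 8584 peaks (28.1%) and wholly below 1 at 1170 (3.83%). It lay above the common ratio at 3869 peaks (12.6%) and below it at 4630 (15.1%).

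**Figure D1:**
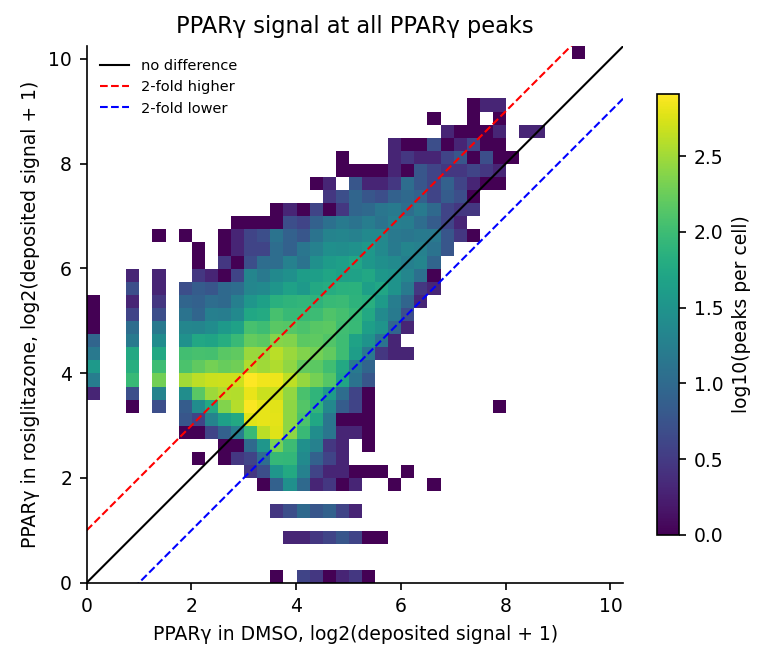
Density of the 30588 PPARγ peaks by log2(deposited signal + 1) in DMSO (x axis) and in rosiglitazone (y axis), with the number of peaks per cell as colour on a log10 scale. The solid line marks equal signal and the dashed lines 2-fold differences, which 9168 peaks passed upward and 1356 downward. The empty lower left corner reflects that a peak had to be strong enough to be listed.

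The ratio followed the distance to the next PPARγ peak, measured from centre to centre. Peaks with a neighbour within 1 kb had mean signals of 13.6 units with DMSO and 22.3 with rosiglitazone, which is 1.64 times as much (1.63 to 1.66). From 1 to 5 kb the ratio was 1.60 (1.59 to 1.61) and from 5 to 10 kb 1.61 (1.60 to 1.62), so these neighbouring classes did not follow a strict order. Beyond that it was 1.46 (1.45 to 1.47) from 10 to 50 kb and 1.31 (1.29 to 1.32) from 50 to 200 kb. The 814 most isolated peaks, with no other PPARγ peak within 200 kb, had 12.3 units with DMSO and 13.7 with rosiglitazone, 1.12 times as much (1.09 to 1.15). Without the highest-scoring peak of the list, which is one of them, the other 813 had 11.4 and 12.5 units and a ratio of 1.09 (1.07 to 1.12).

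The DMSO signal thus differed less between close and isolated peaks than the rosiglitazone signal did, and most of the contrast lay in the rosiglitazone column. The counts moved in both directions. Of the peaks with a neighbour within 1 kb, 35.5% were at least 2-fold higher and 2.32% at least 2-fold lower. Of those isolated by over 200 kb, 15.5% were higher and 11.3% lower by that limit.

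Peaks with a neighbour within 5 kb had a ratio 1.27 times that of peaks with none within 50 kb (1.26 to 1.29). The close peaks also had a higher median score, 12.4 against 9.80. Within the 10 deciles of peak score the same contrast lay between 1.17 and 1.28, and its interval was above 1 in 10 of 10. It was 1.22 (1.20 to 1.24) among peaks that overlapped a C/EBPα peak and 1.29 (1.27 to 1.30) among those that did not.

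C/EBPα peaks at which no PPARγ peak was listed gave a like gradient in the PPARγ columns. Where the next PPARγ peak lay within 1 kb, mean PPARγ was 5.12 units with DMSO and 8.97 with rosiglitazone, 1.75 times as much (1.72 to 1.79). In the farther classes the DMSO mean lay between 2.94 and 3.52 units. How much of the signal within 1 kb is the flank of the listed PPARγ peak was not tested. The ratio was 1.38 (1.36 to 1.41) from 10 to 50 kb and 1.16 (1.10 to 1.23) beyond 200 kb, where the mean signals were 3.02 and 3.51 units. The C/EBPα ratio at those same peaks stayed between 0.941 and 1.07 in all 6 distance classes. From 50 to 200 kb the PPARγ ratio was 1.30, and 1.29 without the C/EBPα peak that held the most PPARγ tags.

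**Figure D2:**
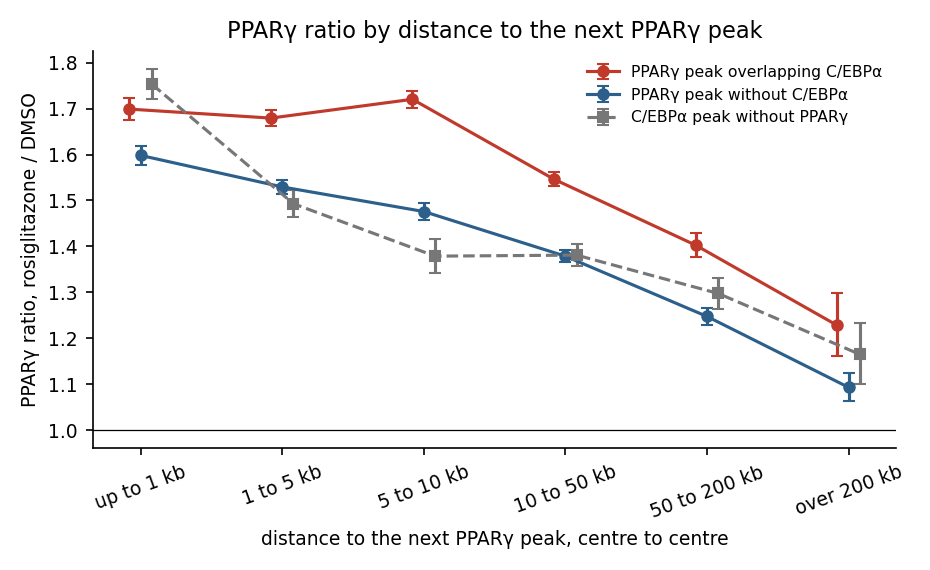
PPARγ ratio of rosiglitazone to DMSO (y axis) in 6 classes of distance to the next PPARγ peak (x axis), from tags summed over the class. Bars are exact 95% intervals for counting error. PPARγ peaks with C/EBPα lie between 1.72 and 1.23, those without between 1.60 and 1.09, and C/EBPα peaks without a PPARγ peak between 1.75 and 1.16, each lowest at the right.

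The number of peaks that lay together showed the same relation in steps. Peaks were joined into a run when consecutive centres lay within 10 kb. The 13837 peaks that stood alone had a ratio of 1.40 (1.40 to 1.41), and pairs had 1.51 (1.50 to 1.52). Runs of 3 to 4 peaks had 1.61 (1.60 to 1.63), runs of 5 to 7 had 1.82 (1.79 to 1.84), and the 471 peaks in runs of 8 or more had 2.07 (2.02 to 2.13). The mean DMSO signal of these classes went from 13.1 to 15.8 units and the mean rosiglitazone signal from 18.3 to 32.8. Per peak, the median log2 ratio was 0.41 for lone peaks and 0.88 for runs of 8 or more, so the order did not rest on a few strong peaks. Runs of 5 or more set against lone peaks within each score decile gave ratios of ratios between 1.12 and 1.36, with all 10 intervals above 1.

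Runs of the same size differed strongly from each other. Of the 477 runs with 5 or more peaks, 444 had a ratio above 1 and 177 a ratio of 2 or more, and the range was 0.621 to 5.56. The interval lay above the common ratio in 177 runs and below it in 71. Of the 51 runs with 8 or more peaks, 50 had a ratio above 1.

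The highest ratio among those 51 was at a run of 8 peaks on chromosome 2 from 30749044 to 30783245, where 58 DMSO tags stood against 341 rosiglitazone tags. Its ratio was 5.56 (4.20 to 7.48), and 7 of its 8 peaks were at least 2-fold higher, against 30.0% of all peaks. The DMSO signal was between 1.76 and 7.91 units at each of the 8, so the run was weakly occupied throughout in the DMSO cells. The runner-up was a run of 8 on chromosome 5 from 37104308 to 37140085, at 3.75 (3.13 to 4.52). The next was a run of 8 on chromosome 16 from 32498369 to 32535637, at 3.46 (2.75 to 4.39).

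At the other end, a run of 8 on chromosome 6 from 82676282 to 82716298 had nearly equal tags, 157 with DMSO and 161 with rosiglitazone, and a ratio of 0.970 (0.773 to 1.22). Its strongest peak held 59.8 units in DMSO and 50.7 in rosiglitazone. The run of 9 between 56225261 and 56265569 on chromosome 19 had 1.06 (0.890 to 1.27), so both intervals included 1 and lay below the common ratio of 1.53. The 2 runs with most peaks, 15 each, lay near the middle with 1.92 (1.62 to 2.28) on chromosome 11 and 1.89 (1.64 to 2.19) on chromosome 8. These runs were singled out by their ratio or size, so their values are a description.

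**Figure D3:**
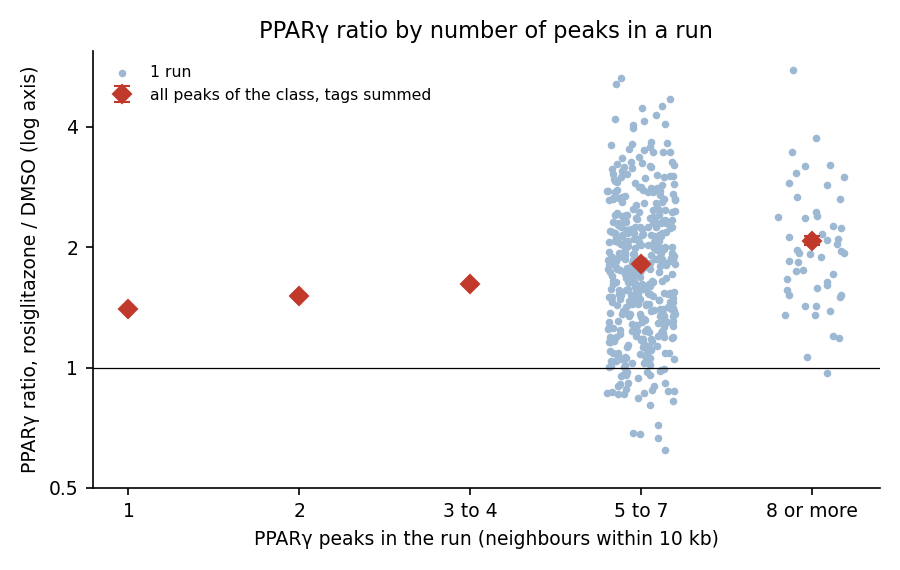
PPARγ ratio of rosiglitazone to DMSO (y axis, log axis) by the number of PPARγ peaks in a run with gaps of at most 10 kb (x axis). Diamonds give all peaks of a class with tags summed and exact 95% intervals for counting error, most of them smaller than the symbol, from 1.40 for lone peaks to 2.07 for runs of 8 or more. Dots are single runs of 5 or more peaks, spread sideways at random, and reach from 0.621 to 5.56.

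The peak score that the authors deposited nearly equals the pooled PPARγ tags of both treatments, with a median of 0.998 of the scaled pooled tags, so it is not independent of the ratio. By score decile the ratio was between 1.35 and 1.38 in the lowest 5, between 1.42 and 1.44 in the next 3, 1.52 (1.51 to 1.54) in the ninth and 1.75 (1.74 to 1.76) in the highest. The gradient thus lay mainly in the upper deciles, and the lowest 5 had no single direction. The highest decile had 43.5 units in DMSO and 76.2 in rosiglitazone on average, and the lowest 6.63 and 9.14. Its ratio was 1.27 times that of the lowest decile (1.25 to 1.29).

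A ranking by 1 of the PPARγ columns fixes the direction by its construction. Ranked by DMSO signal, the highest decile against the lowest gave 0.234, and ranked by rosiglitazone signal it gave 4.25. A ranking that uses no PPARγ tags was therefore made from the summed DMSO signal of C/EBPα, MED1 and CBP at the peak. It gave ratios from 1.05 (1.04 to 1.07) in the lowest decile to 1.86 (1.84 to 1.87) in the highest, higher in each decile than in the one before. The highest against the lowest was 1.77, more than by score.

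The focus ratio is a fraction that the authors deposited for each peak, here between 0.400 and 0.992, with quartile limits near 0.737, 0.815 and 0.882. In HOMER, the peak caller listed in the submitters' notes, it describes how tightly the tags of a peak sit around its centre. Over all peaks the quartiles barely differed, with 1.53 (1.51 to 1.54) in the lowest and 1.54 (1.53 to 1.55) in the highest. That near-equality hid opposite relations at weak and strong peaks. In score deciles 1 to 9 the most focused quartile had the lower ratio, between 0.771 and 0.965 times that of the least focused, with all 9 intervals below 1. In the highest decile it had the higher ratio, 1.21 times (1.18 to 1.23).

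At strong peaks a tight focus went with a high ratio. In the highest decile the ratio was 1.57 (1.53 to 1.60) in the least focused quartile, 1.64 and 1.73 in the next 2 quartiles, and 1.89 (1.87 to 1.91) in the most focused. At weak peaks it went with a low one. In the third decile the ratio was 1.50 (1.46 to 1.55) in the least focused quartile and 1.16 (1.13 to 1.19) in the most focused, where 9.39% of peaks were at least 2-fold lower. Focused peaks were also further apart, with a median distance of 10.9 kb to the next peak in the highest quartile against 6.75 kb in the lowest. Within distance classes the relation of summed tags also had no single direction. Per peak it had one, with a lower median log2 ratio in the most focused than in the least focused quartile of every distance class. From 5 to 10 kb these medians were 0.45 and 0.62. The ratios that follow are of summed tags, in which strong peaks weigh most. With a neighbour from 5 to 10 kb away the most focused quartile had 1.71 (1.69 to 1.74) and the least focused 1.55 (1.52 to 1.58). From 50 to 200 kb the order was the opposite, with 1.25 (1.23 to 1.28) and 1.37 (1.33 to 1.41). Beyond 200 kb the most focused quartile had 0.952 (0.914 to 0.992), and the other quartiles lay between 1.16 and 1.29, the last of which includes the highest-scoring peak.

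**Figure D4:**
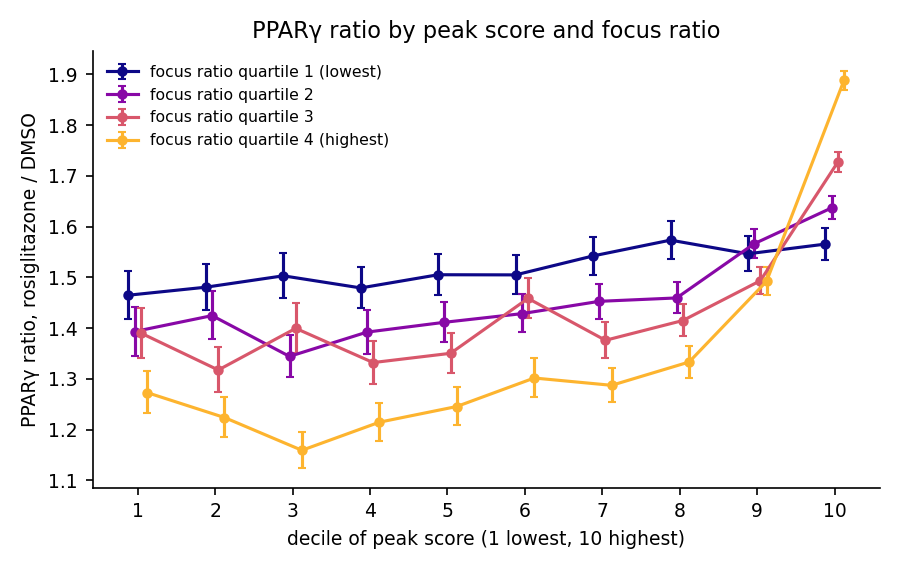
PPARγ ratio of rosiglitazone to DMSO (y axis, starting above 1) by decile of peak score (x axis), for each quartile of focus ratio, with exact 95% intervals for counting error. The most focused quartile is lowest in deciles 1 to 8, level with the third quartile in decile 9, and highest in decile 10, at 1.89.

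Overlap with C/EBPα went with a higher PPARγ ratio. The contrast by overlap uses all peaks, while that by distance left out peaks at middle distances, so their sizes cannot be ranked. A PPARγ peak counted as overlapping when it shared at least 1 bp with a C/EBPα peak. The 11034 overlapping peaks had 18.2 units in DMSO and 29.5 in rosiglitazone on average, and the 19554 others 11.6 and 16.6. The overlapping class had 1.13 times the ratio of the rest (1.12 to 1.14), but also a median score of 15.0 against 10.3. Within score deciles the contrast ran from 1.17 (1.12 to 1.22) in the second decile to 1.00 (0.985 to 1.02) in the ninth and 1.02 (1.00 to 1.03) in the highest. Among the strongest peaks, overlapping and other peaks thus had nearly the same ratio.

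The contrast by overlap was present in every distance class, from 1.06 (1.04 to 1.08) within 1 kb to 1.17 (1.15 to 1.18) from 5 to 10 kb. It combined with the number of peaks in a run. Overlapping peaks in runs of 8 or more had a ratio of 2.30 (2.22 to 2.38), and 51.5% of them were at least 2-fold higher. Peaks without C/EBPα in the same runs had 1.83 (1.76 to 1.90). Lone peaks had 1.51 (1.50 to 1.52) with C/EBPα and 1.32 (1.31 to 1.33) without it. By focus, overlap mattered most in the most focused quartile, with 1.73 (1.71 to 1.74) against 1.37 (1.36 to 1.38).

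The PPARγ ratio also followed the tags of the other factors at the peak. C/EBPα, MED1 and CBP tags of both treatments were summed, a class chosen after values had been seen. The sum includes rosiglitazone tags of MED1, whose ratio moved with that of PPARγ, so these classes are not independent of the difference, and the ranking by DMSO signal above, from 1.05 to 1.86, does not have that limit. The 371 peaks with 0 tags of all 3 factors had 11.1 PPARγ units with DMSO and 8.21 with rosiglitazone, a ratio of 0.740 (0.708 to 0.772). Peaks with 1 to 2 such tags had 0.993 (0.974 to 1.01), an interval that included 1 on the deposited scale and lay below the common ratio. The ratio was 1.21 (1.19 to 1.23) with 3 to 5 tags, 1.45 (1.44 to 1.47) with 11 to 20, 1.64 (1.63 to 1.66) with 51 to 100 and 1.97 (1.95 to 1.99) with 101 or more.

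Peaks with 0 tags of the other factors also differed from the whole list in focus and position. Their median focus ratio was 0.885 against 0.815, and their median distance to the next PPARγ peak 28.3 kb against 8.18 kb. At least 2-fold lower were 25.6% of them, against 4.43% of all peaks, while among peaks with 101 or more tags 0.734% were. Whether peaks with 0 tags of the other factors mark receptor binding or tags without binding was not tested.

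**Figure D5:**
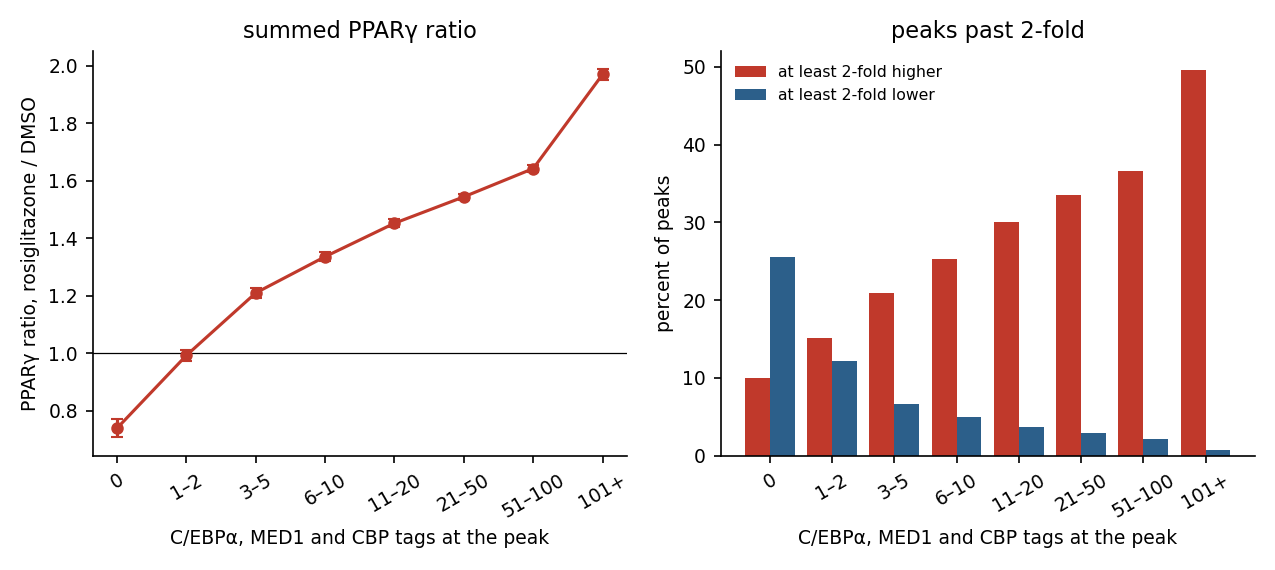
PPARγ at PPARγ peaks by the number of C/EBPα, MED1 and CBP tags at the peak, both treatments together (x axis of both panels). Left, the summed PPARγ ratio of rosiglitazone to DMSO with exact 95% intervals for counting error, from 0.740 at 0 tags to 1.97 at 101 or more. Right, the percent of peaks at least 2-fold higher, from 9.97 to 49.6, and at least 2-fold lower, from 25.6 to 0.734.

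The contrast by distance persisted at like numbers of other tags, and that by C/EBPα overlap had no single direction. In all 8 classes of other tags, peaks with a neighbour within 5 kb had the higher ratio, by 1.10 to 1.26 times, and every interval was above 1. Overlapping peaks, in contrast, had the lower ratio in the 4 classes from 6 to 100 tags, between 0.858 and 0.912 times that of the rest, with every interval below 1. With 101 or more tags they had 1.11 times the ratio (1.08 to 1.14). Only 3 and 39 peaks overlapped in the classes of 1 to 2 and 3 to 5 tags, and their intervals included 1. C/EBPα tags count towards both the overlap and these classes.

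MED1 and CBP ratios differed less with distance than the PPARγ ratio did. At peaks with no neighbour within 200 kb the MED1 ratio was 1.54 (1.42 to 1.68) and the CBP ratio 1.24 (1.14 to 1.36), against 1.72 (1.69 to 1.76) and 1.40 (1.37 to 1.43) within 1 kb. In the classes between, the MED1 ratio lay between 1.59 and 1.65 in no steady order. Without the highest-scoring peak of the list, the MED1 ratio of the isolated peaks was 1.61 (1.47 to 1.76), an interval that reached the value within 1 kb. The isolated peaks held on average 1.68 MED1 tags in DMSO and 1.18 in rosiglitazone, or 1.42 and 1.04 without that peak. The coactivator signal there was thus low. By direction of the PPARγ difference, MED1 stood at 1.95 (1.93 to 1.97) where PPARγ was at least 2-fold higher and at 0.762 (0.700 to 0.828) where it was at least 2-fold lower. Mean MED1 tags per peak were 7.38 in DMSO and 6.56 in rosiglitazone at the former, but only 1.61 and 0.561 at the latter. CBP stood at 1.41 and 1.26 at the same peaks, and C/EBPα at 1.02 and 1.32.

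Together the properties separated peaks with ratios well above the common one from peaks with ratios well below it. The 298 peaks of the highest score decile that overlapped C/EBPα and lay in a run of 5 or more had 43.0 units with DMSO and 93.2 with rosiglitazone, 2.17 times as much (2.13 to 2.21). Those of the same decile and overlap that stood alone, 717 peaks, had 46.5 and 74.1, a ratio of 1.59 (1.57 to 1.61). The 537 peaks of score deciles 1 to 5 without C/EBPα and without a neighbour in 200 kb had 8.86 and 9.17, a ratio of 1.04 (0.998 to 1.07). Those 237 of them in the most focused quartile had 0.899 (0.850 to 0.950). Peaks of the same low scores without C/EBPα but with a neighbour within 1 kb had 1.59 (1.55 to 1.62).

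The 10 peaks with the largest difference upward in deposited units all came from the highest score decile, 7 of them from the most focused quartile. Of the 10, 8 overlapped a C/EBPα peak, 8 had a PPARγ neighbour within 10 kb, and each held at least 294 tags of the other factors. Among all 3059 peaks of that decile, 68.0% overlapped C/EBPα and 1064 were in the most focused quartile. Their median distance to the next peak was 5.96 kb and their median of other tags 64. Overlap and a close neighbour were thus common in the decile as a whole. The largest difference, on chromosome 2 from 167527747 to 167527933, was from 206 units in DMSO to 604 in rosiglitazone. This peak lay in a run of 8 peaks, and MED1 there was 255 units in DMSO and 1278 in rosiglitazone. A peak on chromosome 6 from 115461540 to 115461726 had 99.4 PPARγ units with DMSO and 443 with rosiglitazone, 4.46 times as much (3.63 to 5.51). MED1 there was 786 units with DMSO (225 tags) and 627 with rosiglitazone (82 tags), and no interval was computed for it. C/EBPα there was 583 units with DMSO (264 tags) and 773 with rosiglitazone (607 tags). The highest ratio of the 10 was 5.22 (4.09 to 6.74), on chromosome 17 from 26708442 to 26708628, with 67.7 and 353 units.

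Not all of the strongest peaks shared in this. The highest-scoring peak of the second focus quartile, on chromosome X from 166429106 to 166429292, had 311 units with DMSO and 369 with rosiglitazone, 1.19 times as much (1.03 to 1.37). MED1 at that peak was 94.4 and 551 units. The highest-scoring peak of the least focused quartile was the top of the list, on chromosome 17, with a ratio of 1.45 (1.32 to 1.58). It had a focus ratio of 0.715 and no PPARγ neighbour within 200 kb, unlike the other 9 of the 10. This peak overlapped no C/EBPα peak, although C/EBPα there was 651 units with DMSO and 352 with rosiglitazone. Background was not told apart from binding at this peak.

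Within the highest score decile the 5 highest ratios were at peaks nearly empty in DMSO. That follows from the choice, since a very high ratio at a given number of pooled tags requires few DMSO tags. All 5 had at most 7 tags with DMSO and between 94 and 146 with rosiglitazone. The highest ratio, 56.7 (15.4 to 474), was on chromosome 8 from 113249230 to 113249416, where PPARγ was 1.76 and 99.8 units. A peak on chromosome 9 from 61142907 to 61143093 had 2.64 units with DMSO and 94.8 with rosiglitazone, 35.9 times as much (12.0 to 177), with C/EBPα at 15.5 and 68.8 units. One on chromosome 5 from 107516549 to 107516735 had 3.52 and 78.2 units, a ratio of 22.2 (8.40 to 83.2), and lay 0.755 kb from the next PPARγ peak. One on chromosome 7 from 35954368 to 35954554 had 6.16 and 121 units, a ratio of 19.7 (9.33 to 49.9). MED1 was 315 units there with DMSO and 673 with rosiglitazone. That peak lies in a 1 Mb region with high signal of the other factors, as do 2 of the 10 largest upward differences, starting at 117486472 on chromosome 10 and at 35923645 on chromosome 7, and background in these regions was not told apart from binding. One on chromosome 2 from 29290464 to 29290650 had 5.28 and 102 units, a ratio of 19.4 (8.65 to 53.8).

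The 10 peaks with the largest difference downward were of 2 kinds. In 6 of them PPARγ was nearly gone in rosiglitazone, with at most 12 tags there against 52 to 266 in DMSO, and each held at most 7 tags of the other factors in all. These 6 overlapped no C/EBPα peak and were all in the most focused quartile. The first, on chromosome 5 from 114323239 to 114323425, had 234 units with DMSO and 9.98 with rosiglitazone, 0.0427 of the former (0.0218 to 0.0758). Its score of 18.4 was 0.155 of its scaled pooled tags, the single peak in the list under 0.5 of them, so the score did not carry most of these tags. One on chromosome 10 from 80387237 to 80387423 had 58.9 and 2.49 units, a ratio of 0.0423 (0.00852 to 0.129), and a score equal to 1.00 of its pooled tags.

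The other 4 overlapped a C/EBPα peak and kept at least 24 tags with rosiglitazone. A peak on chromosome 2 from 61370476 to 61370662 had 155 units with DMSO and 96.4 with rosiglitazone, 0.623 of the former (0.489 to 0.792), with C/EBPα at 59.6 and 118 units. One on chromosome 7 from 3331563 to 3331749 had 125 and 79.8 units, a ratio of 0.639 (0.488 to 0.834). One on chromosome 5 from 17382576 to 17382762 had 94.1 and 49.1 units, a ratio of 0.521 (0.373 to 0.723). On chromosome 6, the peak from 93274014 to 93274200 had 65.1 and 19.95 units, a ratio of 0.307 (0.185 to 0.492). All 4 intervals lay below 1, but the peaks were picked by their difference in these same columns, so this is a description. MED1 was at most 10.5 units, or 3 tags, in DMSO at each.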

How the data were processed

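Chromatin immunoprecipitation libraries of 3T3-L1 adipocytes were used as 2 deposited peak lists, of PPARγ and C/EBPα, on build mm9. The submitters' processing notes name FastQC, Bowtie, HOMER and edgeR, with no version or setting given in the sources used here. Per the file headers, each list holds a normalised tag signal per peak for the 4 factors under both treatments, as deposited by the authors. The score and the fraction called focus ratio are the authors' deposited values, 1 per peak.

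All values above 0 in all 8 columns were whole multiples of 1 step per column, within 0.02 steps (100%), so tags were recovered. The steps correspond to 11.4 M PPARγ tags in DMSO and 12.0 M in rosiglitazone if scaled to 10 M. For MED1 they correspond to 2.86 M and 1.31 M. Median PPARγ tags per peak were 12 and 17. BRL, the header of the MED1 column for rosiglitazone, is a code name of the drug.

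With 1 column per treatment no count model or test was fitted. Ratios are of tags summed over a class times the steps, with exact 95% (Clopper-Pearson) intervals, and ratios of 2 such ratios have intervals on the log scale from the 4 tag sums. Intervals cover counting error only and treat tags as independent. Tags carry no molecular identifiers, so duplicates among them could not be told apart. Ratios of single peaks use no pseudocount, while log2 ratios per peak, the 2-fold counts and the ranking of named peaks by ratio used a pseudocount of 1. Score deciles broke ties by file order. Deposited start and end (186 bp apart) were read as 1-based and inclusive. Scripts ran in Python 3.11.15 with scipy 1.17.1 and pandas 2.3.3, and the ratios were tested on simulated data. Named peaks were the 10 largest differences each way in deposited units, the 5 highest and 5 lowest ratios in the top score decile and the highest score of each focus quartile. Members, classes and lists were chosen with earlier results of these data known. Alternatives varied the pseudocount, fold, tag minimum, scaling, score threshold, overlap and distance limits. Polymerase and input libraries were not analysed here, and no gene list was used.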

Additional observations from a re-analysis of the deposited data

How the results depend on the processing

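No paired analysis was possible because the files hold 1 PPARγ column per treatment that carries no replicate number, and leaving out a replicate was not possible for the same reason. The scale decides the counts. With the PPARγ ratio at C/EBPα-only peaks as the scale, which shifts log2 ratios by 0.55, the ratio over all peaks was 1.04, with 4705 peaks at least 2-fold higher and 4018 lower. Centred on the median log2 ratio of 0.50, the counts were 4767 and 4089. With a fold of 1.5 they were 14050 and 3498, and with scores at or above the median 4988 and 421. A pseudocount of 4 gave 6919 higher and 701 lower. The ratio over all peaks was 1.54 with at least 20 tags, 1.49 without the top 1% by score, 1.59 with scores at or above the median and 1.42 as the median per peak.

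The contrast by score was 1.22 without the top 1%, 0.234 ranked by DMSO, 4.25 ranked by rosiglitazone and 1.77 ranked by the other factors. The contrast by focus ratio, 1.01, reversed to 0.958 without the top 1%, to 0.901 as medians per peak and to 0.841 within score deciles, and was 1.07 with scores at or above the median. The contrast by C/EBPα overlap, 1.13, was 1.10 without the top 1%, 1.09 with scores at or above the median, 1.11 as medians, 1.10 within score deciles, 1.10 with centres within 50 bp and 1.12 with overlap of at least 0.5 of the peak. The contrast by distance, 1.27, was 1.24 with scores at or above the median, 1.23 within score deciles and 1.47 for 1 kb against 200 kb. Without 1 Mb regions rich in the other factors (76 peaks), and without the peak whose score was under 0.5 of its pooled tags (chosen after seeing the data), no ratio left its interval. For the focus ratio and the rankings by 1 PPARγ column the construction of the alternative shows the dependence, and otherwise the cause was not tested.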

Other observations

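Chromosomes differed in their PPARγ ratio by more than counting error. The highest was chromosome 11, with 1.73 (1.71 to 1.76), followed by chromosome 7 with 1.67 (1.64 to 1.69). The lowest were chromosome X with 1.35 (1.31 to 1.39) and chromosome 13 with 1.37 (1.34 to 1.40). On chromosome X 30.2% of the PPARγ peaks had no other within 50 kb, and on chromosome 11 8.93% had none. Over the 20 chromosomes the ratio and that share had a Spearman rho of -0.63, a description of chromosomes that share both libraries. The order was not strict, since chromosome 19 had the lowest share, 6.64%, with a ratio of 1.49 (1.47 to 1.52), and chromosome 6 had 9.94% with 1.47 (1.45 to 1.49).

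Adjacent peaks were only weakly alike in their ratios, although peaks in long runs had higher ratios as a class. Among pairs in which both peaks held at least 20 tags, the log2 ratios had a Spearman rho of 0.07 within 1 kb (1783 pairs), 0.13 from 1 to 5 kb (3518 pairs) and 0.03 beyond 200 kb (1645 pairs). The median absolute difference of log2 ratios within a pair was 0.80 within 1 kb and 0.84 beyond 200 kb. Counting error contributes to both values.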
